A study of Mus musculus with 36 samples.

Results

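The 9 genes described here encode factors of nonsense-mediated decay (NMD): Upf1, Upf2, Upf3a, Upf3b, Smg1, Smg5, Smg6, Smg9 and Xrn1. They were picked by symbol as factors of the pathway, with earlier results of these data known. All 9 were found among the 25239 genes of the P-body and cytoplasm table, the 25229 genes of the polysome and total RNA table and the 48440 genes of the Ago2 knockout (KO) table. All 9 also passed the filter of at least 10 reads in each of the 18 comparisons.

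NMD is a surveillance pathway that destroys mRNAs on which translation ends too early, and it also limits many intact mRNAs. The helicase UPF1 acts at the terminating ribosome and is linked by UPF2 and by UPF3A or UPF3B to the exon junction complex, a mark left on mRNA by splicing. The kinase SMG1, held in check by a complex that includes SMG9, phosphorylates UPF1. SMG5 and the endonuclease SMG6 then bind it, and XRN1 degrades uncapped RNA from its front end. Several NMD factor mRNAs, among them those of Upf1, Smg1 and Smg5, are known targets of the pathway, and P-bodies are cytoplasmic condensates that hold decapping factors and untranslated mRNA.

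RNA was sequenced from 36 mouse libraries in 16 groups, of which 12 held 2 libraries and 4 held 3. Naive embryonic stem (ES) cells were kept with inhibitors of differentiation and LIF, and primed ES cells were derived from them with activin A and bFGF. Mouse embryonic fibroblasts (MEFs) carried a doxycycline-inducible cassette of the reprogramming factors Oct4, Klf4, Sox2 and Myc, the M2-rtTA transactivator and a Pou5f1-EGFP reporter. They were used uninduced or at day 3 of doxycycline, the latter with a control or a Nudt21 short hairpin RNA. All cells used for sorting carried a lentiviral GFP-LSM14A protein driven by the EF1a promoter, and P-bodies were sorted as GFP-positive particles from the cytoplasmic fraction with which they were compared. The Ago2 KO ES cells, which the study describes as naive, came from single-cell clones made with paired CRISPR guides. The polysome experiment used naive ES cells with GFP-LSM14A and a dTAG degron joined to endogenous Ddx6, also from single-cell clones. The degron group received dTAG-13, which removes the DDX6 protein, for hours rather than days, and control cells were harvested alongside. Cells of both groups were treated with cycloheximide before lysis.

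The libraries held 6769727 to 31185799 assigned reads. Fibroblast markers summed to 40300 CPM (counts scaled to library size) or more in the MEF cytoplasm and to 77.7 CPM or less in every ES cell library, and pluripotency markers were at or under 0.983 CPM in the MEFs. Nudt21 mRNA was at 4.87 to 5.94 CPM after knockdown and at 88.9 to 110 CPM in the day 3 controls. Ago2 mRNA was at 2.54 to 4.83 CPM in the Ago2 KO libraries. Ddx6 mRNA was no check of the degron, which acts on protein. Replicates stood apart most in 4 groups, with chi-square over its degrees of freedom at 334 in the Ago2 KO cytoplasm, 52.1 in the day 3 control P-bodies, 44.6 in the Ago2 KO P-bodies and 29.9 in the naive cytoplasm, against 1.82 to 20 in the others. In the Ago2 KO cytoplasm, 10 genes took 41.6% of the reads of replicate 2 and 25% of those of replicate 1. Each call was repeated under alternatives, which were another tool (DESeq2), other filters and scaling, 1 fit of all groups, a block for the replicate number, and leaving out each library. Results that rest on a library that stands apart are given with and without it. The study describes the replicates of its P-body comparisons as biologically independent and those of its polysome experiment as biological replicates. The labels number all replicates without naming a culture or day, so how the replicates were kept apart cannot be read from them.

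The decay factor mRNAs did not move as a group between cytoplasm and P-bodies. In naive ES cells Upf2, Upf3b and Xrn1 were higher in P-bodies and Upf1, Upf3a and Smg9 were lower, which made 6 of 9 called at an edgeR adjusted p under 0.05 where 38% of all tested genes were called, 22.6% higher and 15.4% lower. The median log2 fold change of the 9 was -0.19, against -0.06 over all genes. In primed ES cells 7 of 9 were called, 2 higher and 5 lower, where the background was 50.7% of genes, 26.5% higher and 24.2% lower. In MEFs 7 of 9 were called, 2 higher and 5 lower, with a background of 55.3%, of which 26.6% higher and 28.7% lower. After Nudt21 knockdown 3 of 9 were called, all lower, where 21.9% of genes were called and 12.8% were lower. In Ago2 KO cells 2 of 9 were higher and 1 lower, where 6.51% of genes were called, 5.47% higher and 1.05% lower. In day 3 control cells 0 of 9 were called by edgeR, where only 0.646% of genes were. There, 3 (Upf1, Upf3b and Smg5) had an unadjusted p under 0.05 and DESeq2 called those 3. The share of all genes at that unadjusted level is not given here, so the 3 have no background to be read against. DESeq2 also called more genes overall. With a block for the replicate number 2 of 9 were called in day 3 control cells and 5 of 9 in Ago2 KO cells. The block also called more genes overall in both, as given in the last section.

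**Figure D1:**
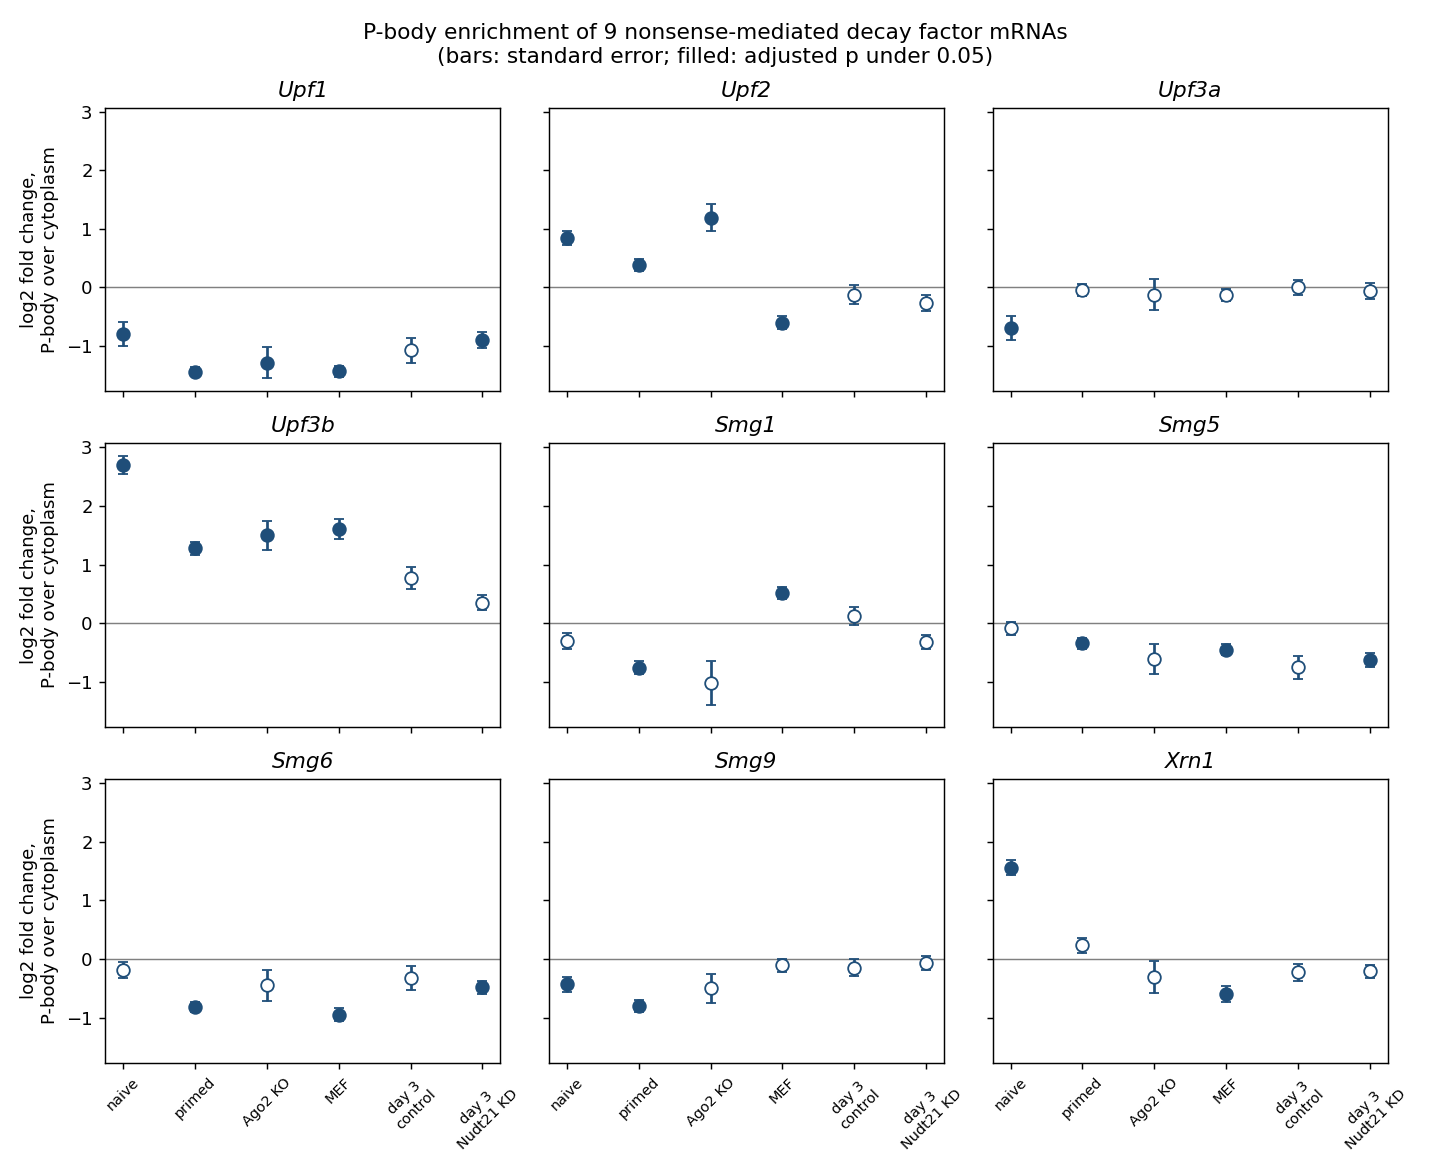
Log2 fold change of P-body over cytoplasm (y axis) for each of the 9 mRNAs (panels) in 6 kinds of cells (x axis), with bars for the standard error and filled points for an edgeR adjusted p under 0.05. Upf1 lies below 0 in every cell type, from -0.79 in naive to -1.44 in primed ES cells, and Upf3b lies above 0 in every cell type, from 0.35 to 2.70.

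Upf1, the helicase at the centre of the pathway, lies on the minus strand of chromosome 8 (70331525 to 70353278, mm10). Its mRNA was at 361 and 241 CPM in the naive cytoplasm and at 172 and 176 CPM in naive P-bodies. The primed cytoplasm had 266 and 287 CPM against 95.3 and 111 CPM in primed P-bodies, and the MEF cytoplasm had 150 and 141 CPM against 52.6 and 52.3 CPM in P-bodies. Every cytoplasmic library thus exceeded both P-body libraries of its cell type. P-body levels were 1.73-fold lower in naive ES cells (log2 fold change -0.79 ± 0.20 SE, adjusted p = 0.0308). They were 2.72-fold lower in primed ES cells (log2 -1.44, adjusted p = 1.18e-08) and 2.69-fold lower in MEFs (log2 -1.43, adjusted p = 5.21e-06). The naive value was -0.47 without naive cytoplasm replicate 1, the library with 361 CPM, and -1.04 without replicate 2, and it was called in both. The 4 epithelial marker genes checked also differed between these libraries, with a sum of 2140 CPM in replicate 1 and 1060 CPM in replicate 2. The same 4 genes summed to 2100 and 1950 CPM in the primed cytoplasm, so a high sum was not particular to that naive library. The part of these genes in the result was not tested. The difference between naive and primed enrichment, 0.51 on the log2 scale, did not pass the test (adjusted p = 0.148) but was called without naive cytoplasm replicate 1, at 0.83.

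Upf2, which bridges UPF1 and the UPF3 proteins, lies on the plus strand of chromosome 2 (5951469 to 6056703). It was at 26.9 and 27 CPM in the naive cytoplasm and at 48.7 and 47.6 CPM in P-bodies, a 1.79-fold higher level (adjusted p = 0.00432). In MEFs the order was turned, with 51.3 and 49.3 CPM in the cytoplasm and 33.7 and 30.6 CPM in P-bodies (1.52-fold lower, adjusted p = 9.78e-04). Neither pair of groups overlapped. Primed ES cells lay between, with 29.3 and 31.6 CPM in the cytoplasm and 38.1 and 42.5 CPM in P-bodies (log2 0.38, adjusted p = 0.00806), a call that was lost without P-body replicate 2. The test of the difference between naive ES cells and MEFs gave 1.25 on the log2 scale (adjusted p = 2.02e-04).

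Upf3b and Upf3a, paralogs that tie UPF2 to the exon junction complex, went different ways. Upf3b, on the minus strand of the X chromosome (37091678 to 37110322), had 10.6 and 12.8 CPM in the naive cytoplasm and 78.5 and 73.8 CPM in P-bodies. This was 6.50-fold higher (log2 2.70 ± 0.15 SE, adjusted p = 4.14e-04) and stood at the 96.5th percentile of all tested genes. Upf3b was also higher in P-bodies of primed ES cells, with 20 and 18.6 CPM in the cytoplasm and 49.7 and 45.4 CPM in P-bodies (2.43-fold, adjusted p = 7.66e-07). In MEFs it was at 18.8 and 18.4 CPM in the cytoplasm and at 46.1 and 63.9 CPM in P-bodies (3.05-fold, adjusted p = 4.24e-05). P-body libraries exceeded cytoplasmic ones throughout, and the naive enrichment exceeded the primed one by 1.28 on the log2 scale (adjusted p = 0.00159) and the MEF one by 0.90 (adjusted p = 0.0194), the latter lost without either naive P-body library. Upf3a, on the plus strand of chromosome 8 (13785615 to 13799193), was at 61 and 42.1 CPM in the naive cytoplasm and at 33 and 31 CPM in P-bodies (1.61-fold lower, adjusted p = 0.0464). That log2 value, -0.69, was -0.40 without naive cytoplasm replicate 1 and -0.92 without replicate 2. Its P-body log2 fold changes elsewhere ran from -0.13 to 0 and were not called. Leaving out either naive P-body library ended the naive calls of Upf1, Upf2, Upf3a and Smg9, whereas Upf3b and Xrn1 stayed called in all 10 alternatives, at 2.57 to 2.86 and 1.48 to 1.65.

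**Figure D2:**
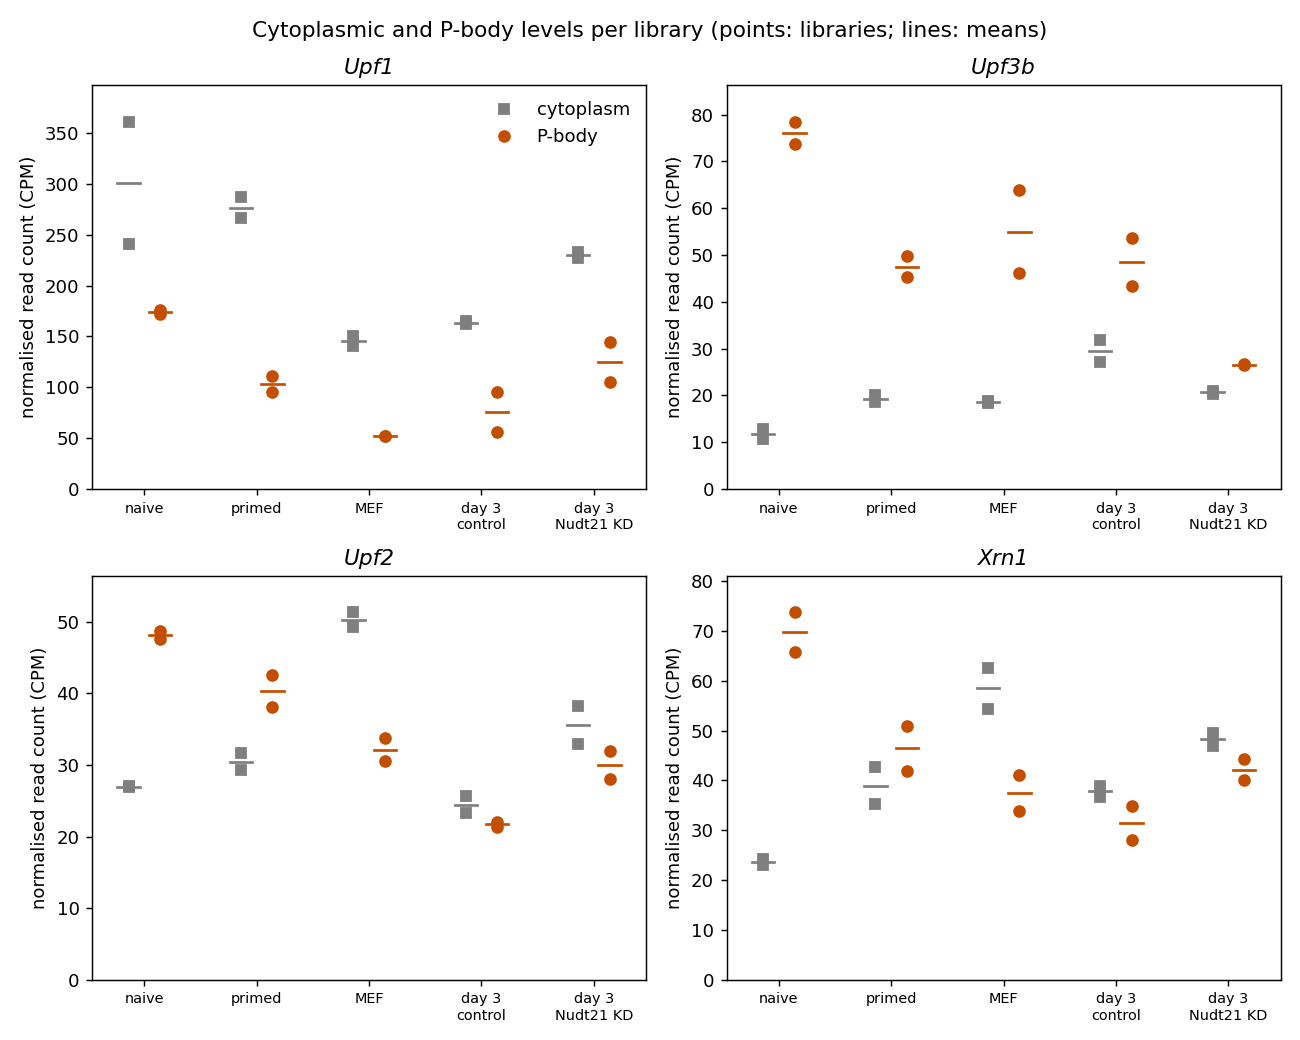
Normalised read counts in CPM (y axes, from 0) of Upf1, Upf3b, Upf2 and Xrn1 in cytoplasm (grey squares) and P-bodies (orange circles) of 5 kinds of cells, with lines at the means of 2 libraries. Upf1 was higher in every cytoplasmic library and Upf3b in every P-body library, whereas Upf2 and Xrn1 were higher in P-bodies of naive ES cells and in the cytoplasm of MEFs.

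Smg1, the kinase of UPF1, and Smg9, a subunit of its complex, differed in where their mRNAs were low. Smg1, on the minus strand of chromosome 7 (118131308 to 118243670), had 29.9 and 33.2 CPM in the primed cytoplasm and 19.2 and 18.6 CPM in primed P-bodies (log2 -0.76, adjusted p = 1.13e-04). In MEFs the P-bodies were higher, at 67.5 and 68.7 CPM against 51 and 47.5 CPM in the cytoplasm (log2 0.51, adjusted p = 0.00193), and this call was lost without cytoplasm replicate 2. The naive P-bodies had 30.7 and 26.8 CPM against 36.8 and 34.3 CPM, which was not called (log2 -0.31, adjusted p = 0.139), and naive and MEF enrichment differed by -1.01 (adjusted p = 9.49e-04). Smg9, on the plus strand of chromosome 7 (24399619 to 24422778), had 39.3 and 42.4 CPM in the primed cytoplasm and 25.1 and 22.6 CPM in P-bodies (log2 -0.80, adjusted p = 4.25e-05). In naive ES cells it was at 42.3 and 39.9 CPM in the cytoplasm and 29.1 and 31.8 CPM in P-bodies (log2 -0.43, adjusted p = 0.0466). That call was lost in 5 of 10 alternatives, among them DESeq2 and the replicate block. In MEFs the Smg9 fractions lay close, at 29.1 and 28.3 CPM against 26.6 and 25 CPM (log2 -0.11, adjusted p = 0.436).

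Smg5 and Smg6, which bind phosphorylated UPF1 and lead to cleavage or decay of the mRNA, were both lower in primed and MEF P-bodies. Smg6, on the plus strand of chromosome 11 (74925823 to 75164448), had 62.5 and 60.2 CPM in the primed cytoplasm and 35 and 35.7 CPM in P-bodies (log2 -0.82, adjusted p = 6.50e-06). In MEFs it had 62.3 and 58.2 CPM in the cytoplasm and 29.5 and 31.1 CPM in P-bodies (log2 -0.95, adjusted p = 7.16e-05). The naive fractions were near each other, with 57.4 and 55.3 CPM against 53.6 and 45 CPM (log2 -0.19, adjusted p = 0.298). Smg5, on the plus strand of chromosome 3 (88336260 to 88362338), followed with smaller values. Its log2 fold changes were -0.34 in primed ES cells (adjusted p = 0.00853) and -0.45 in MEFs (adjusted p = 0.00402). In naive ES cells its libraries overlapped, at 113 and 98.6 CPM in the cytoplasm and 102 and 96.5 CPM in P-bodies. Leaving out either MEF cytoplasm library ended the MEF call of Smg5. Its primed call was lost without primed cytoplasm replicate 2 and in the fit of all groups.

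Xrn1, the exonuclease that completes decay and itself a known P-body protein, lies on the plus strand of chromosome 9 (95954760 to 96057803). Its mRNA had 24.2 and 23 CPM in the naive cytoplasm and 73.7 and 65.7 CPM in P-bodies (2.95-fold higher, log2 1.56 ± 0.13 SE, adjusted p = 8.10e-04). In MEFs it had 62.5 and 54.4 CPM in the cytoplasm and 33.9 and 41 CPM in P-bodies (log2 -0.60, adjusted p = 0.00395), a call lost without cytoplasm replicate 1. The groups did not overlap in either cell type but had opposite order. In primed ES cells they overlapped, with 35.2 and 42.6 CPM against 50.9 and 41.9 CPM (log2 0.23, adjusted p = 0.132). Naive enrichment exceeded MEF enrichment by 1.97 (adjusted p = 5.35e-05) and primed enrichment by 1.19 (adjusted p = 0.0029). Both differences passed the test under every alternative run, at 1.89 to 2.35 and 1.05 to 1.46.

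Counted over the members, 4 of 9 differed in enrichment between naive and primed ES cells, where 25.3% of all genes did. Of the 4, 3 were higher and 1 was lower in naive ES cells, against 13.9% and 11.4% of all genes. Between naive ES cells and MEFs 7 of 9 differed, 4 higher and 3 lower, where 41.3% of all genes did, 21.5% higher and 19.8% lower. These comparisons share the naive libraries. Upf3b, Xrn1 and Smg6 were the members with higher enrichment in naive ES cells in both comparisons, and Upf3a the one with lower. The Smg6 and Upf3a differences from primed cells (log2 0.48 and -0.79) were lost in 8 and 10 of 14 alternatives. The Upf3a and Smg9 differences from MEFs (log2 -0.74 and -0.51) were lost in 8 and 11. The Smg6 difference from MEFs (log2 0.56) was lost in 2, the replicate block and the fit without naive P-body replicate 1. With the replicate block the Smg6 difference from primed cells and the Smg9 difference from MEFs were also lost.

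At day 3 of reprogramming, Upf1 had 165 and 162 CPM in the control cytoplasm and 95.3 and 56.1 CPM in P-bodies. Both P-body libraries were below both cytoplasmic ones, but they differed from each other, and the log2 fold change of -1.07 ± 0.215 (SE) had an adjusted p of 0.0682. Upf3b had 27.1 and 31.9 CPM in the cytoplasm and 43.3 and 53.6 CPM in P-bodies (log2 0.77, adjusted p = 0.1). The log2 fold change of Upf1 was -1.44 without P-body replicate 1 and -0.79 without replicate 2. Upf1 was called in 8 of the 10 alternatives, Upf3b in 6 and Smg5 in 5. The replicate block called Upf1 (log2 -1.11) and Upf3b (log2 0.76).

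With the Nudt21 knockdown, which lowers a factor that chooses cleavage and polyadenylation sites, Upf1 had 227 and 233 CPM in the cytoplasm and 105 and 144 CPM in P-bodies (log2 -0.90, adjusted p = 0.00154). Smg5 (log2 -0.63, adjusted p = 0.00506) and Smg6 (log2 -0.48, adjusted p = 0.0136) were also lower in P-bodies. The Smg6 call was lost without either cytoplasmic library and in the fit of all groups, and that of Smg5 without cytoplasm replicate 1. The knockdown changed the enrichment of 0 of 9 members relative to the day 3 control by edgeR, where 0.0118% of genes were called, with 0 of 9 at an unadjusted p under 0.05 and 0 by DESeq2. Day 3 control enrichment differed from MEF enrichment for 0 of 9 by edgeR, where 14.7% of genes were called. Upf2, Upf3b and Smg6 had an unadjusted p under 0.05 there, but the share of all genes at that level is not given. Those 3 are thus not read as more than background. Upf3b (log2 -0.80, adjusted p = 0.0844) was called there in 5 of 14 alternatives, DESeq2 and the replicate block among them.

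In Ago2 KO ES cells, which lack an Argonaute protein of the microRNA pathway, Upf3b had 42.3 and 41.5 CPM in the cytoplasm and 127 and 111 CPM in P-bodies (2.83-fold higher, adjusted p = 0.00835). Upf2 had 33.1 and 31.1 CPM against 71.9 and 74.1 CPM (2.28-fold higher, adjusted p = 0.0188). Upf1 had 55.8 and 75.9 CPM against 23.5 and 30.8 CPM (2.42-fold lower, adjusted p = 0.0264). The libraries did not overlap for any of these. The 3 calls were lost when either P-body library was left out. Smg1 showed how far the cytoplasmic libraries stood apart, with 41.1 CPM in replicate 1 and 97.5 CPM in replicate 2 against 32.3 and 36 CPM in P-bodies (log2 -1.02, adjusted p = 0.136). With the replicate block Smg1 (log2 -0.90) and Smg5 (log2 -0.60) were called lower beside those 3, and adjusted p-values of Smg1 ran from 0.000264 to 0.626 over its 9 alternatives. Without cytoplasm replicate 1, Smg1 was at -1.63 and Xrn1 at -0.73. Without cytoplasm replicate 2, the library in which 10 genes took 41.6% of reads, Smg1 was at -0.30 and Xrn1 at 0.06. Xrn1 had 28.2 and 46 CPM in the cytoplasm and 30.8 and 29.2 CPM in P-bodies (log2 -0.31, adjusted p = 0.555). The Ago2 KO table was made with another annotation and quantifier than the naive table, so no test between them was made.

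The members differ in base composition. Of 21877 protein-coding genes, the median GC content of the longest coding transcript was 49.1%. Xrn1 (41.9%), Upf3b (42.5%), Upf2 (43.5%) and Smg1 (44.9%) lay below it. Smg6 (51.9%), Upf3a (52.9%), Smg5 (56.5%), Upf1 (57.9%) and Smg9 (60.3%) lay above. The 3 members with the lowest GC content were the 3 that were higher in naive P-bodies. In MEFs that order did not hold, since Upf2 and Xrn1 were lower in P-bodies and Upf3b was higher. In length, the transcripts ran from 2057 bases for Upf3a to 15557 for Smg1 and 10256 for Xrn1, where the median of all coding genes was 2681. The 3′ untranslated region of Xrn1 (4994 bases) was longer than those of 96.3% of coding genes.

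A smooth trend of the log2 fold change with GC content and transcript length was fitted over all genes as a description. It accounted for 34.6% of the deviance in naive ES cells, 12.8% in primed ES cells and 21.8% in MEFs. In naive ES cells the trend value was 1.33 for Xrn1 and 0.97 for Upf2, close to their measured 1.56 and 0.84. For Upf3b it was 1.01, so that the measured 2.70 lay 1.69 above it, at the 95.6th percentile of such distances. Smg1 lay 0.94 below its trend value of 0.63. In primed ES cells Upf1 lay 1.01 below its trend value of -0.43, at the 8.85th percentile, and in MEFs Upf3b lay 1.08 above its trend value of 0.53. The part of base composition in these results was not tested further.

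**Figure D3:**
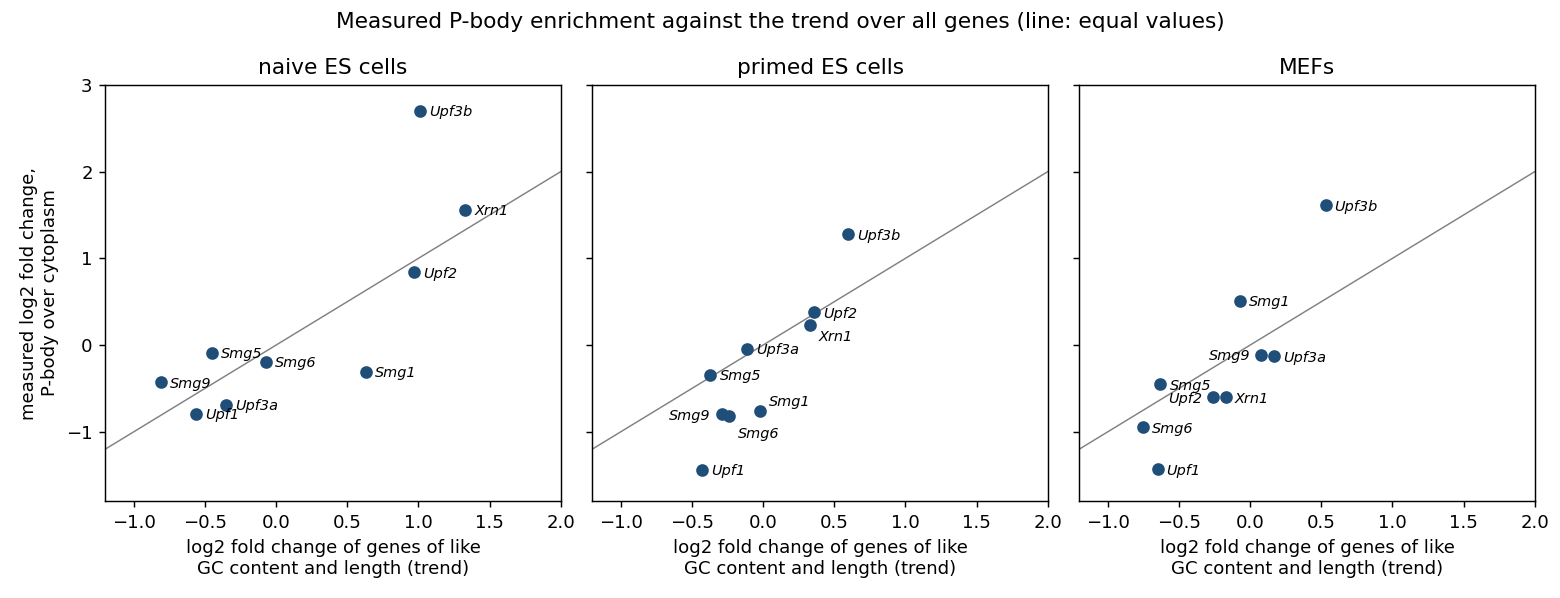
Measured log2 fold change of P-body over cytoplasm (y axis) of the 9 mRNAs against the value of a trend with GC content and transcript length over all genes (x axis) in naive ES cells, primed ES cells and MEFs, with a line of equal values. Xrn1 and Upf2 lie near the line in naive ES cells, while Upf3b lies above it in all 3 panels.

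Cytoplasmic levels of the decay factors differed between cell states by 1.49-fold (Smg9) to 2.52-fold (Upf3b) from the highest to the lowest mean of 5 groups. In bulk samples, fewer cells of a type and less RNA per cell cannot be told apart. Between naive and primed ES cells, 2 of 9 were called where 43.8% of all genes were and 21.6% were lower. Both were lower in the naive cytoplasm, Upf3b with the 10.6 and 12.8 CPM given above against 20 and 18.6 CPM (adjusted p = 0.0325) and Xrn1 with 24.2 and 23 CPM against 35.2 and 42.6 CPM (adjusted p = 0.0159). In P-bodies the naive libraries were the highest for both, at 73.8 CPM or more against 63.9 CPM or less for Upf3b and at 65.7 CPM or more against 50.9 CPM or less for Xrn1. The Upf3b and Xrn1 calls between naive and primed cytoplasm were lost without either primed library.

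Between naive ES cells and MEFs, 7 of 9 cytoplasmic levels differed where 71.8% of all genes did, 36% higher and 35.9% lower. Upf1 (2.07-fold), Smg5 (1.66-fold) and Smg9 (1.43-fold) were higher in naive ES cells, and Xrn1, Upf2, Upf3b and Smg1 were lower, with log2 values of -1.31 to -0.47. Upf3a was not called between naive and primed ES cells (log2 0.61, edgeR adjusted p = 0.0568) or between naive ES cells and MEFs (log2 0.56, adjusted p = 0.0505). It was called higher in naive ES cells in 4 and 7 of 10 alternatives. The replicate block was among them in both, at log2 0.59 and 0.54. The calls of Upf3b, Smg1 and Smg9 were lost without either MEF library. Upf1 ran in the order naive (mean 301 CPM), primed (276), Nudt21 knockdown (230), day 3 control (164) and MEF (146). Naive and primed overlapped there and the other neighbours did not. Without naive cytoplasm replicate 1 the naive level of Upf1 was lower than the primed one (log2 -0.22) and was called. Xrn1 ran from MEF (58.4 CPM) over Nudt21 knockdown (48.2), primed (38.9) and day 3 control (37.8) to naive (23.6), and primed and day 3 control overlapped.

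At day 3 of reprogramming all 9 members differed from MEFs in the cytoplasm, where 69.3% of genes did, 35.5% upwards and 33.7% downwards. Upf3a (35.7 and 34.2 CPM in MEFs, 60 and 60.5 CPM at day 3) and Upf3b (18.8 and 18.4 against 27.1 and 31.9 CPM) rose with Smg9 and Upf1. Upf2 fell from 51.3 and 49.3 CPM to 23.3 and 25.6 CPM, and Smg1, Smg5, Smg6 and Xrn1 fell with it. The smallest of these changes, 0.23 in log2 for Upf1, was lost without MEF cytoplasm replicate 2 and in the fit of all groups. Nudt21 knockdown changed 8 of 9 relative to the day 3 control, where 49.6% of genes changed, 24.6% upwards and 25% downwards. Smg1 (log2 0.80), Upf2 (0.54), Smg5 (0.53), Upf1 (0.50) and Xrn1 (0.36) rose, and Upf3a (-0.56), Upf3b (-0.51) and Smg9 (-0.41) fell. The Upf1 and Xrn1 calls were lost in the fit of all groups and that of Smg9 without day 3 control replicate 2. The make-up of the cells moved with these comparisons, which share the day 3 control libraries. In the cytoplasm, the 6 fibroblast markers summed to 40300 and 44800 CPM in MEFs, 5320 and 5480 CPM in day 3 controls and 1640 and 1650 CPM after Nudt21 knockdown. The 3 pluripotency markers summed to 0.975 CPM or less, 321 and 331 CPM, and 703 and 799 CPM in the same groups. The 4 blood and endothelial markers summed to 1.95 and 2.71 CPM in MEFs, 11.7 and 14.9 CPM in day 3 controls and 99 and 104 CPM after knockdown. The same 4 genes summed to 356 and 350 CPM in the naive ES cell cytoplasm and to 25.7 and 25.4 CPM in the primed one. Their sum is thus not particular to blood and endothelial cells. The part of these markers in the levels of the decay factors was not tested.

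**Figure D4:**
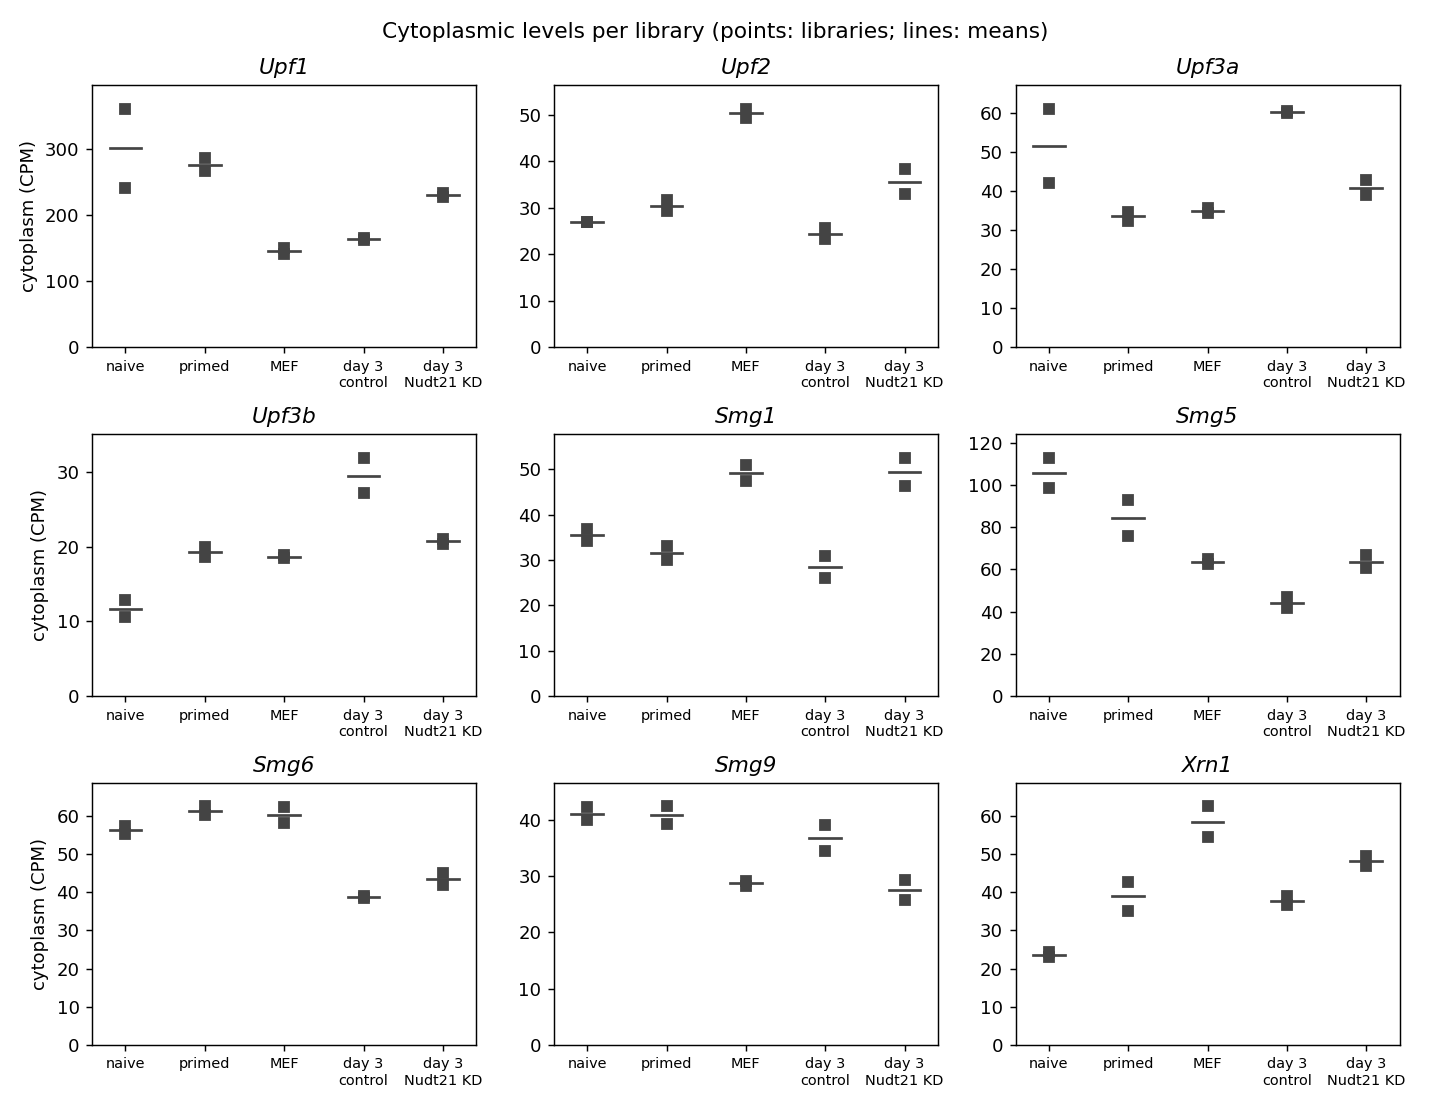
Cytoplasmic normalised read counts in CPM (y axes, from 0) of the 9 mRNAs in 5 cell states (x axes), each point 1 library and each line the mean of 2. Upf1 ran from a mean of 301 CPM in naive ES cells to 146 CPM in MEFs, and Xrn1 from 58.4 CPM in MEFs to 23.6 CPM in naive ES cells.

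Per kilobase of the longest transcript, Upf1 was the most abundant member in the cytoplasm of all 5 of these states, at 65.2 CPM per kilobase in naive ES cells and 31.6 in MEFs. Smg1 had the lowest value in each, at 2.29 and 3.16 CPM per kilobase, but Xrn1 (2.3) was level with it in naive ES cells. In total RNA of control ES cells, Smg5 (62.3 CPM per kilobase) stood above Upf1 (32.9) and Xrn1 was lowest (5.21). The libraries differ in preparation and counting, so levels are not set across the tables. Over the 20 P-body and cytoplasm libraries, the genes whose log2 CPM followed that of Upf1 most closely among 10260 genes were Hcfc1 (Pearson r = 0.971), Pom121 (0.967) and Ints1 (0.962). Among the members the closest were Smg6 (0.80) and Smg5 (0.72), and Upf3b ran the other way (-0.67). These libraries share cell types and fractions, so the correlations are descriptions only.

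As a relative measure of ribosome occupancy, RNA of the polysome fraction was set against total RNA of the same lysates. The study's methods describe that fraction as a pool of the ribosome-containing gradient fractions, and it is called polysomes here after the labels. Most decay factor mRNAs were low in polysomes. In control ES cells 8 of 9 were called, 7 lower and 1 higher, where 42.9% of all genes were called, 24.1% lower and 18.8% higher. The median log2 fold change of the members was -0.56, against 0.02 over all genes. Upf1 was at 152, 150 and 155 CPM in total RNA and at 42.7, 41.4 and 35.3 CPM in polysomes, 3.82-fold lower (log2 -1.93, adjusted p = 3.43e-12). All polysome libraries lay far below all total RNA libraries, and only 0.824% of tested genes had a lower value than Upf1.

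Among the SMG factors, Smg6 had 63, 61.2 and 59.9 CPM in total RNA and 28.7, 32.1 and 30.3 CPM in polysomes (log2 -1.02, adjusted p = 3.67e-09). Smg9 had 30, 33.2 and 32.6 CPM against 16.2, 13.8 and 17.7 CPM (log2 -1.03, adjusted p = 2.00e-07). Smg1 was lower by a smaller amount, with 148, 147 and 119 CPM against 103, 104 and 114 CPM (log2 -0.38, adjusted p = 0.00119). The groups of these 3 did not overlap. Smg5 overlapped between fractions, at 268, 265 and 299 CPM in total RNA and 292, 292 and 284 CPM in polysomes (log2 0.06, adjusted p = 0.52).

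Of the UPF partners, Upf2 had 80, 75 and 62.6 CPM in total RNA and 45.8, 39.3 and 46.7 CPM in polysomes (log2 -0.74, adjusted p = 5.59e-06). Upf3b, the member most enriched in P-bodies, was lower in polysomes by 0.30 on the log2 scale (adjusted p = 0.00759), with 50.6, 44.7 and 40.8 CPM against 35.5, 35.6 and 40 CPM. Upf3a was the member with a called higher value, at 35.8, 36.9 and 35.2 CPM in total RNA and 41.3, 44.2 and 42.6 CPM in polysomes (log2 0.24, adjusted p = 0.00754). Xrn1 was lower by 0.56 (adjusted p = 1.25e-04). The Upf3b call was lost without control polysome replicate 2. Against the trend with GC content and length, which accounted for 14.2% of the deviance, Upf1 lay 1.56 below its trend value of -0.38, at the 1.37th percentile. Smg9 lay 0.93, Smg6 0.63, Upf2 0.56, Upf3b 0.44 and Xrn1 0.24 below theirs. Smg1 lay close to its trend value, at -0.38 against -0.36. Smg5 and Upf3a lay 0.41 and 0.25 above theirs. Upf1, the lowest of the members in polysomes, was also below its cytoplasmic level in the P-bodies of all 6 kinds of cells, and that difference was called in 5 of them.

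**Figure D5:**
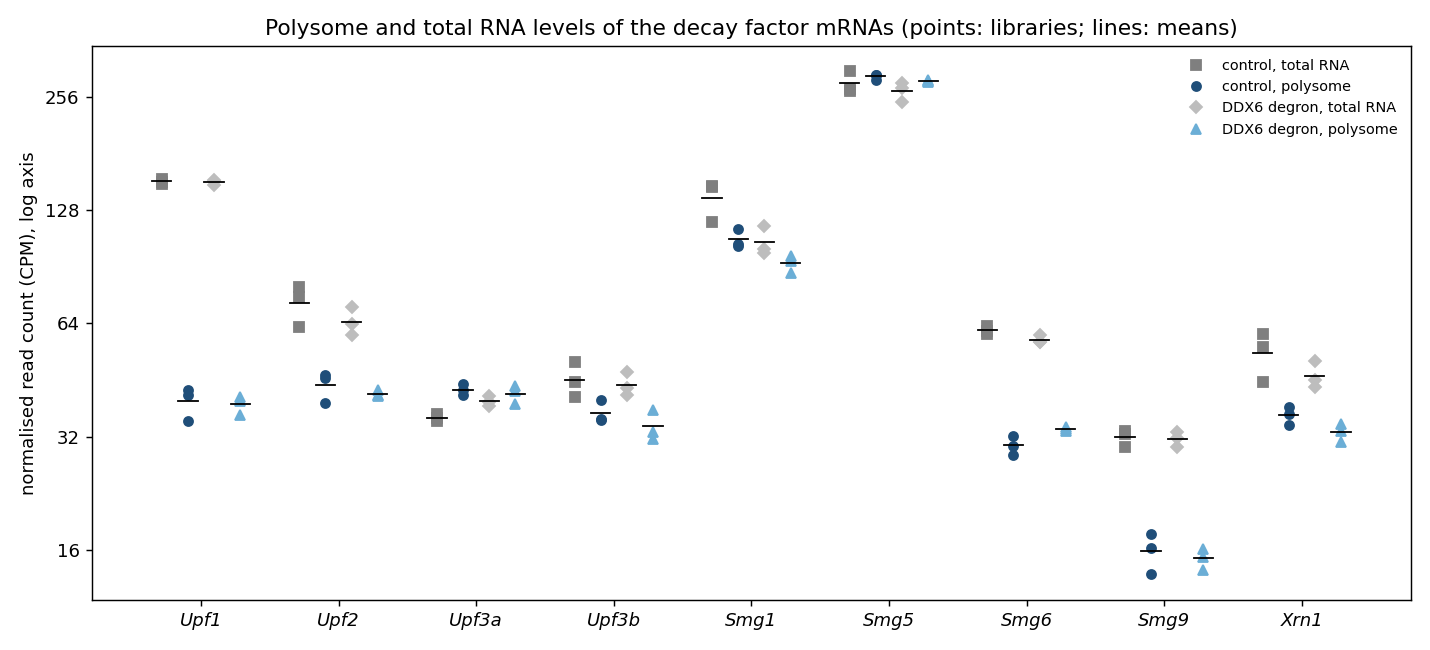
Normalised read counts in CPM (y axis, log scale) of the 9 mRNAs in total RNA (squares and diamonds) and polysomes (circles and triangles) of control and DDX6 degron ES cells, each point 1 of 3 libraries and each line their mean. Upf1 falls from 150 CPM or more in control total RNA to 42.7 CPM or less in polysomes, and Smg5 lies between 247 and 299 CPM in all 4 groups.

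After DDX6 removal 7 of 9 members were called lower in polysomes, where 50.9% of all genes were called and 26.8% were lower, and Upf1 again had the lowest value. It was at 149, 153 and 154 CPM in total RNA and at 36.5, 40.7 and 39.9 CPM in polysomes (log2 -1.97, adjusted p = 4.47e-19). Smg9 (log2 -1.06), Smg6 (-0.79), Upf2 (-0.64), Xrn1 (-0.51), Upf3b (-0.37) and Smg1 (-0.19) were also lower. The Smg1 call was lost without degron polysome replicate 1, without degron total replicate 3 and in the fit of all groups. The difference in occupancy between degron and control cells was called for 0 of 9 members, as for 0% of all genes by edgeR. At an unadjusted edgeR p under 0.05 it was 1 of 9, Smg6 (log2 0.22, edgeR adjusted p = 0.879), and DESeq2 called 0 of 9. The share of all genes at that unadjusted level is not given, so this count has no background to be read against. The values ran from -0.17 for Upf3a to 0.22 for Smg6.

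In total RNA, Smg1 was the member that differed with DDX6 removal. It had 148, 147 and 119 CPM in control and 101, 98.1 and 116 CPM in degron cells (log2 -0.41 ± 0.08 SE, adjusted p = 0.0269), which made 1 of 9 called where 3.31% of genes were and 2.07% were lower. The groups did not overlap, but the third control library (119 CPM) lay next to the third degron library (116 CPM). Without control replicate 3, 3 of 9 were called, with Upf2 at -0.26 and Xrn1 at -0.31 beside Smg1. Without each of 4 other libraries 0 of 9 were called. The number of genes called overall also moved between these fits, over the range given in the last section. With a replicate block 0 of 9 were called, with Smg1 at -0.40. Adjusted p-values of Smg1 ran from 6.65e-05 to 0.171 over its 12 alternatives. Upf1 was at 149 to 155 CPM in all 6 total RNA libraries (log2 -0.01, adjusted p = 0.951).

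The rest of the pathway was read from lists written by hand. Of 9 other SMG and UPF1-linked factors, 3 were higher and 2 lower in naive P-bodies, where 22.6% of all genes were higher and 15.4% lower. Pnrc2, a link between UPF1 and decapping, was the highest (log2 1.72, adjusted p = 5.92e-04) and the helicase Dhx34 the lowest (log2 -0.70, adjusted p = 0.0173). In MEFs 1 of 9 was higher, again Pnrc2 (log2 0.37), and 7 were lower, led by Nbas (log2 -1.59), where 26.6% of all genes were higher and 28.7% lower. In polysomes of control ES cells 8 of 9 were lower, led by the helicase Mov10 (log2 -1.91), and Pnrc2 was higher (log2 0.55), where 24.1% of all genes were lower and 18.8% higher.

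Of the 6 exon junction complex genes, Rnps1 (log2 0.38) was higher and the core helicase gene Eif4a3 (log2 -0.40) lower in naive P-bodies, against 22.6% and 15.4% of all genes, and both calls were lost with the replicate block. In P-bodies of primed ES cells 1 of 6 was called higher and 2 lower, against 26.5% and 24.2% of all genes. In MEFs 3 were higher and 1 lower, against 26.6% and 28.7%. In control polysomes 3 were higher and 2 lower, against 18.8% and 24.1%. Casc3, a core subunit, was the lowest of the 6 in primed P-bodies (log2 -0.71), MEF P-bodies (2.11-fold lower) and control polysomes (2-fold lower). Of the 4 genes of termination and poly(A) binding, 0 of 4 were called in naive P-bodies, where 38% of all genes were. In primed P-bodies 1 was higher and 1 lower, against 26.5% and 24.2% of all genes. In MEF P-bodies 1 was higher and 2 were lower, against 26.6% and 28.7%. The release factor gene Gspt1 was the 1 called in control polysomes (log2 -1.04), where 42.9% of all genes were. Of 8 decapping genes, 3 were higher in naive P-bodies, among them Ddx6 (log2 2.43) and Dcp1a (log2 0.80), against 22.6% of all genes. In MEFs 5 were lower and 2 higher, with Dcp1a at -1.17, where 28.7% of all genes were lower and 26.6% higher. In control polysomes 3 of the 8 were lower and 1 was higher, against 24.1% and 18.8% of all genes, with a median log2 of -0.06. The scaffold gene Edc4 was the lowest of them there (log2 -1.89).

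Of 12 transcripts known as NMD targets, 2 were higher and 4 lower in naive P-bodies, with the stress-response genes Gadd45a at 1.45 and Atf3 at -1.73 in log2, where 22.6% of all genes were higher and 15.4% lower. In primed ES cells 2 were higher and 8 lower, against 26.5% and 24.2% of all genes. In MEFs 7 were higher and 2 lower, against 26.6% and 28.7%. The median log2 fold change of the 12 was -0.28 in naive ES cells, -0.63 in primed ES cells and 0.59 in MEFs, against -0.06, 0 and 0.03 over all genes. In control polysomes 5 of 12 were higher and 2 lower, within log2 values of -0.24 to 0.34, where 18.8% of all genes were higher and 24.1% lower. With DDX6 removal 3 of 12 were called in total RNA, all higher (median log2 0.16, against 0.01 over all genes), where 3.31% of all genes were called. That comparison called 509 genes, and 82 with the replicate block.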

How the data were processed

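By the study's methods, libraries from P-body and cytoplasmic fractions were made from poly(A) RNA with an oligo-dT kit, unless a random-primed protocol was indicated. The oligo-dT kit does not mark strand, so reads of overlapping genes cannot be told apart. The authors aligned reads with HISAT2 to mm10, and the deposited table holds featureCounts values per RefSeq gene. Of these values 17.6 to 25.7% per library were not whole, so they were treated as estimated counts. For the polysome, total RNA and Ago2 KO libraries the deposited values are estimated counts from salmon, of which 5.05 to 13.1% were not whole. The study also describes salmon counts for its random-primed libraries. Whether the Ago2 KO libraries were random-primed is not stated. Values of all 3 tables were rounded here to whole numbers. The 10 tables of the authors' own comparisons hold fold changes and p-values and were not used.

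Counts were normalised with TMM and tested two-sided with the quasi-likelihood test of edgeR 4.0.16 in R 4.3.3, on genes whose reads over all libraries of a fit summed to 10 or more, with Benjamini-Hochberg adjustment over all tested genes. A gene was called at an adjusted p under 0.05. Differences between enrichments were contrasts in a single fit. Standard errors were derived from the fold change and its F statistic. CPM were scaled by TMM over all libraries of a table, so that ratios of CPM differ slightly from fitted fold changes. Percentiles rank fold changes among all tested genes. Alternatives were DESeq2 1.42.0, its size factors within edgeR, filterByExpr, no filter, a replicate block, 1 fit to every group of a table, and leaving out each library. In the last, a lone library was assumed to vary like the others. The trend used mgcv 1.9.3, and GC content and length came from the longest coding transcript of GENCODE M21 on GRCm38 (mm10). Coordinates are those of the whole gene in the same annotation. Code was tested on simulated counts, and figures were drawn with matplotlib 3.10.9 in Python 3.11.15.

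At totals of 6769727 to 31185799 reads, replicates of every group varied by more than counting error alone. Their chi-square was at least 1.82 per degree of freedom. That value is pooled over genes and does not speak for single members. All 9 members are named, and of each other list the highest and lowest called gene in a comparison, at most. The members, lists and tests were chosen with earlier results of these data known, so no list is independent support. By the study's methods, total RNA was kept from each lysate used for polysomes, and P-bodies were sorted from the fraction they are compared with. No source used here says that equal replicate numbers mark the same preparation. Deviations of same-numbered libraries from their group means had correlations of -0.06 to 0.602 across genes in the P-body experiments and -0.003 to 0.196 in the polysome experiment. The main fits had no block, and blocked values are given beside the calls they change.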

Additional observations from a re-analysis of the deposited data

Results flagged for a closer look

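The results here were set apart because enrichment in P-bodies, the log2 fold change over cytoplasm, differed between cell types by the test of the difference itself (edgeR, adjusted p under 0.05). Against primed ES cells, naive enrichment was higher for Upf3b by 1.28, for Xrn1 by 1.19 and for Smg6 by 0.48, and it differed by -0.79 for Upf3a. Against MEFs, it was higher for Xrn1 by 1.97, for Upf2 by 1.25, for Upf3b by 0.90 and for Smg6 by 0.56. It was lower than in MEFs for Smg1, Upf3a and Smg9, with differences of -1.01, -0.74 and -0.51. Both comparisons used the same naive libraries, and replicate 1 and 2 of the naive cytoplasm differed by more than those of most groups.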

How the results depend on the processing

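Over the 9 members in 18 comparisons, settings other than leaving out a library kept direction and call in 894 cases, lost the call in 24, gained it in 28 and moved an uncalled value in 8, with 0 reversed. Leaving out 1 library gave 769, 69, 38 and 41, and 1 reversal, the cytoplasmic level of Upf1 between naive and primed ES cells (-0.22 without naive cytoplasm replicate 1 and 0.35 without replicate 2, against 0.11). The causes were not tested. In P-bodies of every cell type other than primed ES cells, the number of genes called moved by over 1.5 times when 1 library was left out, which limits what 2 libraries per group can show.

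In day 3 control P-bodies, 0 members and 102 genes were called, against 3 and 2105 with DESeq2, 3 and 1940 without a filter, 3 and 3308 in the fit of all groups, 2 and 802 with a replicate block, and 202 genes with filterByExpr. In Ago2 KO cells, 3 members and 1095 genes became 5 and 4178 with the replicate block, with 1731 genes by DESeq2, 716 with its size factors and 2643 without a filter. The difference between day 3 control and MEF enrichment, with 0 members and 2575 genes, gave 1 member with DESeq2, 2 without a filter, 1 with the block and 1 in the fit of all groups. The gene counts of those alternatives are not given here. For the knockdown against day 3 control difference, 2 genes became 26 with DESeq2, 62 without a filter and 1 with the block. The occupancy difference, with 0 genes, gave 4 with DESeq2, 16 without a filter and 6 with the block. In total RNA, 1 member became 0 with the block, and 509 genes became 832 with DESeq2, 863 without a filter, 82 with the block and 1138 in the fit of all groups. The fit of all groups also lowered the genes called from 8209 to 5128 in primed P-bodies, from 3501 to 2100 in knockdown P-bodies and from 7934 to 4877 for the knockdown level. Fractions of an experiment came from shared preparations, but whether equal numbers mark them is not stated. With the replicate block, members called in the other comparisons stayed within 1.5 times the main count.

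Leaving out each library in turn, members called ranged from 2 to 8 in naive P-bodies (2056 to 10018 genes), 1 to 5 in day 3 control P-bodies (82 to 8752 genes), 1 to 6 in knockdown P-bodies (1017 to 5729 genes) and 0 to 7 in Ago2 KO P-bodies (446 to 5617 genes). MEF P-bodies had 5595 to 9976 genes. Differences in enrichment ranged from 2 to 5 members for naive against primed (2293 to 7089 genes), 3 to 8 for naive against MEF, and 0 to 3 for day 3 control against MEF (259 to 5546 genes). The knockdown difference had 0 to 2185 genes and the occupancy difference 0 to 52. Cytoplasmic levels ranged from 0 to 5 members for naive against primed (2242 to 9799 genes) and 4 to 8 for naive against MEF. Total RNA ranged from 0 to 3 members (6 to 3373 genes).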
